A study of Mus musculus with 10 samples.

Results

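The Hedgehog pathway was followed through 8 genes of the count table, taken by their symbols: Dhh, Ptch1, Hhip, Smo, Sufu, Gli1, Gli2 and Gli3, which are 8 of the 25239 genes listed. All 8 had a row. Their RNA was counted by sequencing in 4 groups, 10 libraries in all. Cells of MLTC-1, a single line derived from a mouse Leydig tumour, received hymeglusin (n = 3), which blocks HMG-CoA synthase, or the solvent DMSO (n = 3). Untreated primary Leydig cells were taken from testes at 24 months (n = 2) and at 2 months of age (n = 2). The labels give no dose or time for hymeglusin, no strain or genotype for the mice and no method of isolation. Nor do they tie a replicate to its own culture or animal, so the p-values reflect only the scatter among these libraries, and that scatter may be technical.

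Hedgehog ligands are secreted proteins that bind the receptor Ptch1. Without ligand, Ptch1 holds the membrane protein Smo inactive. Once ligand has bound, Smo acts at the primary cilium to release the Gli transcription factors from Sufu, which retains them in the cytoplasm. Gli1 is an activator and itself a target gene, Gli2 acts mainly as an activator, and Gli3 mainly as a repressor. Ptch1 and Hhip, a membrane protein that binds ligand, are target genes too and restrain the pathway. In the mouse testis, Sertoli cells secrete Dhh, and their neighbours outside the tubules respond. Mice without Dhh form few Leydig cells.

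Total counts were 17407456 to 34787330 per library. The Leydig cell label was checked against 9 defining markers, whose summed level was 6670 to 6852 CPM (counts scaled to library size) with hymeglusin, 9214 to 9436 CPM with DMSO, 18240 to 26420 CPM in 24-month cells and 20150 to 22290 CPM in 2-month cells. Each of the 9 was detected in both primary groups. In MLTC-1 cells Hsd17b3, which makes testosterone in adult Leydig cells, was at 0 counts in DMSO libraries 1 and 2. It had at most 9 counts in any MLTC-1 library. Hsd3b6 averaged 1.7 CPM with DMSO, 3.0 CPM with hymeglusin and 3075 CPM in 2-month cells. In the age test below (adjusted p under 0.05), 1 of the 9 was higher at 24 months, Insl3 (log2 1.73), and 1 lower, Lhcgr (-1.49). Over all genes 13.5% were higher and 15.1% lower. The 24-month libraries stood apart from each other: the chi-square statistic per degree of freedom between their counts was 134 for that pair, 18.9 for the 2-month pair and 3.44 to 7.67 for pairs within an MLTC-1 group.

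Promoter windows of Smo and Dhh are shown because these members differed most between the cell line and the primary cells, and that of Ptch1 because it is a textbook Gli target. Each runs 5′ to 3′ from 250 bases before to 50 bases after a transcription start in RefSeq, build GRCm38.p6. Capitals mark the dinucleotide CG, in which vertebrate DNA can be methylated.
Smo, chr6:29735247-29735546, plus strand: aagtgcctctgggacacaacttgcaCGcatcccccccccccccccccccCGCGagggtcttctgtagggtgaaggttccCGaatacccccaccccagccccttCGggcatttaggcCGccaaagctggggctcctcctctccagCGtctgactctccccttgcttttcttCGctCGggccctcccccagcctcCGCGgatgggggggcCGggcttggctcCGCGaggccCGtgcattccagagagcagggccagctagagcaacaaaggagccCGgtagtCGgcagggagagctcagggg
Dhh, chr15:98898491-98898790, minus strand: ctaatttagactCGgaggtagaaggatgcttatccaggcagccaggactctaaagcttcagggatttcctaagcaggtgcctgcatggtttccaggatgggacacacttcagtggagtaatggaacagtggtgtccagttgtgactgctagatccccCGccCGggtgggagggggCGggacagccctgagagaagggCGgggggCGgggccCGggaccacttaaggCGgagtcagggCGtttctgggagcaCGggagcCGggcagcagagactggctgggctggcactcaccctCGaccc
Ptch1, chr13:63565686-63565985, minus strand: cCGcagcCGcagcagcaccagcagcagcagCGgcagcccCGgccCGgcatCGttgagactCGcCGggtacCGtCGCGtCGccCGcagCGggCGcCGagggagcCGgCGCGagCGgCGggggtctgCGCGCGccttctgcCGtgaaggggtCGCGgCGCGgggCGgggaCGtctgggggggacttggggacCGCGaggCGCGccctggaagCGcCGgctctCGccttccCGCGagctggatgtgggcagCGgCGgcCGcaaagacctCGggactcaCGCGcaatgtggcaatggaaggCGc
The window of Smo held 17 CG, that of Dhh 12 and that of Ptch1 47, against a median of 7 over the 32851 windows of the table. At least as many were found in 31.4% of all windows for Smo, 39.6% for Dhh and 1.44% for Ptch1. The Ptch1 window lies inside the bounds of the gene, so it belongs to 1 of several starts. The Gli consensus motif TGGGTGGTC, whose reverse complement is GACCACCCA, was searched on both strands. It was found in 0 of the 7 members' windows, and with 1 mismatch allowed also in 0 of 7. The same searches matched 0.253% and 6.74% of all windows. The table held a window for 7 of the 8 members, and Gli1 was the other.

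Levels are given in CPM, scaled by TMM over all 10 libraries. Dhh, the ligand gene (chromosome 15, 98881615 to 98898562, minus strand), was high in the tumour line and low in primary cells. It stood at 32.8, 30.5 and 35.5 CPM in hymeglusin replicates 1 to 3 and at 35.8, 39.6 and 35.5 CPM with DMSO. The 24-month libraries had 5.36 and 3.23 CPM and the 2-month libraries 0.953 and 2.14 CPM. All MLTC-1 values lay above all primary values. Exons of Dhh overlap annotated exons of Rhebl1 on the same strand in GENCODE M21. Rhebl1, a small GTPase gene, had 32 and 68 counts in 24-month cells and 19 and 39 in 2-month cells, where Dhh had 81 and 78 counts in 24-month cells and 23 and 54 in 2-month cells. How reads of the shared exons were assigned is not given in the sources used here. The other Hedgehog ligand genes were scarce: Shh was at 0 counts in all 10 libraries, which allows up to 0.0873 to 0.199 CPM per library, and Ihh had at most 14 counts in a library.

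Ptch1, the receptor gene (chromosome 13, 63508328 to 63573460, minus strand), was abundant in all 4 groups. It stood at 104, 104 and 114 CPM with hymeglusin and at 122, 146 and 133 CPM with DMSO. The 24-month cells had 22.6 and 59.5 CPM, the 2-month cells 83.1 and 83.4 CPM. The 2-month values were nearly equal, whereas the 24-month libraries lay far apart. Hhip, the ligand-binding protein (chromosome 8, 79965850 to 80058060, minus strand), was near the limit of detection. It had 0, 2 and 2 counts with hymeglusin and 0 in each DMSO library, 0 and 2 counts at 24 months and 3 and 6 counts at 2 months.

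Smo, the signal transducer (chromosome 6, 29735497 to 29761366, plus strand), split the series by cell source. It had 0.597, 0.704 and 0.678 CPM with hymeglusin and 0.815, 0.524 and 0.624 CPM with DMSO, which was 16 to 23 counts per library. The 24-month cells had 37.9 and 31.6 CPM, the 2-month cells 85.1 and 81.1 CPM. The MLTC-1 libraries thus carried Ptch1 and Gli1 RNA with little Smo RNA. Sufu, the cytoplasmic inhibitor of Gli proteins (chromosome 19, 46396896 to 46488804, plus strand), varied least. It stood at 26.6, 24.8 and 26.2 CPM with hymeglusin, 22.04, 28.4 and 25.6 CPM with DMSO, 61.0 and 45.4 CPM in 24-month cells and 41.7 and 46.1 CPM in 2-month cells.

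Gli1, the activator and target gene (chromosome 10, 127329882 to 127341579, minus strand), stood at 32.7, 30.1 and 36.2 CPM with hymeglusin and 26.4, 31.8 and 31.5 CPM with DMSO. The 24-month cells had 2.58 and 1.86 CPM, the 2-month cells 4.27 and 4.68 CPM, so every MLTC-1 library lay above every primary library. An end of it overlaps Arhgap9 on the other strand, which had 12 to 158 counts per library against 39 to 1227 for Gli1. Gli2 (chromosome 1, 118834061 to 119054405, minus strand) had at most 8 counts in a library, which was 0.317 CPM in 2-month replicate 2. Gli3 (chromosome 13, 15463723 to 15730026, plus strand) had 0, 2 and 2 counts with hymeglusin, 8, 1 and 0 with DMSO, 4 and 0 at 24 months and 19 and 22 at 2 months. Gli1 was therefore the Gli gene with most reads in each of the 10 libraries.

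**Figure D1:**
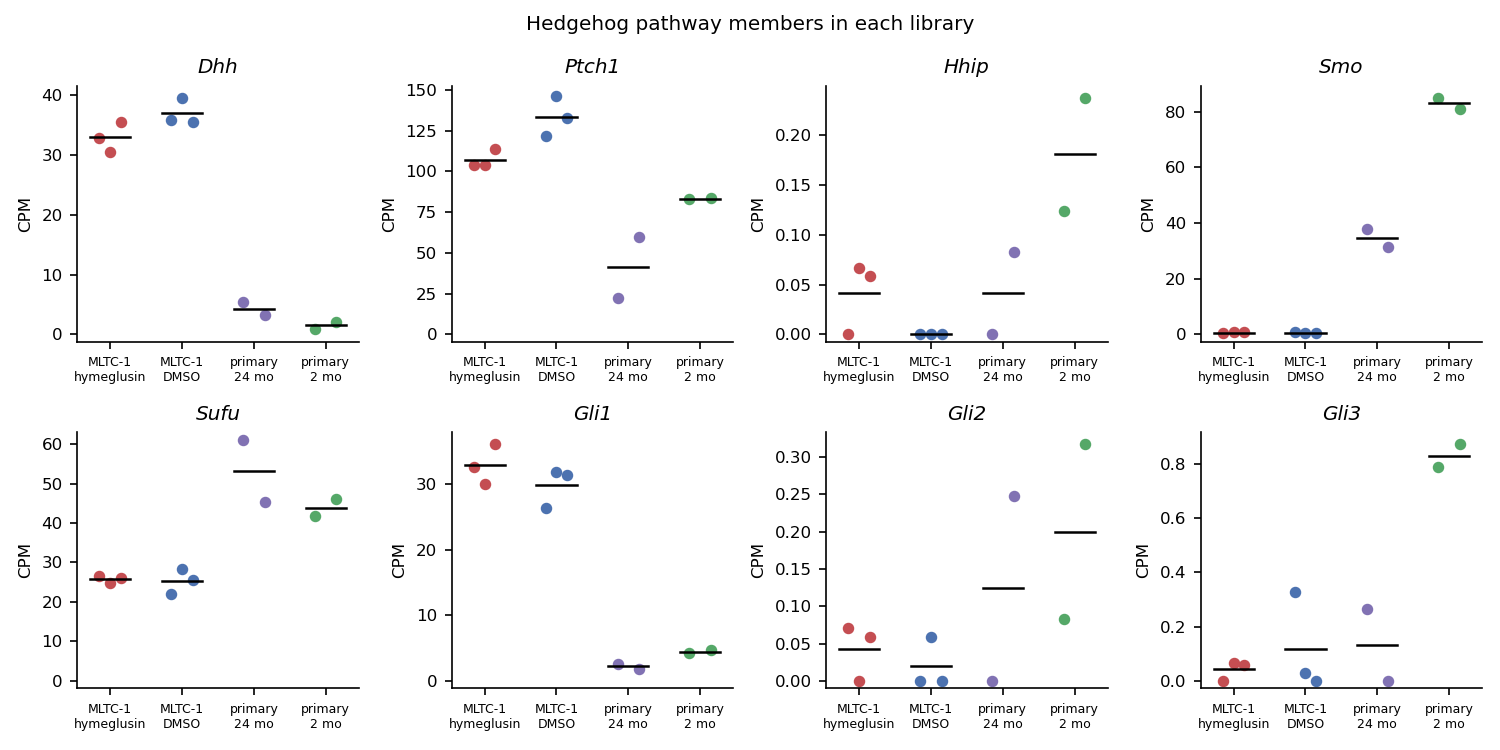
Level of each of the 8 members in CPM (vertical axes, linear from 0, a scale of its own per gene) in the MLTC-1 libraries with hymeglusin and DMSO and the primary libraries of 24 and 2 months. Points are libraries and bars are group means. Smo lay under 1 CPM in the 6 MLTC-1 libraries and at 31.6 to 85.1 CPM in the 4 primary libraries, while Dhh and Gli1 were highest in MLTC-1 cells.

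Per kilobase of the longest annotated transcript (RPKM, CPM divided by kilobases), levels can be set between genes. In hymeglusin cells the order was Ptch1 (10.3 ± 0.548 RPKM, mean ± SD, n = 3), Gli1 (8.13 ± 0.757), Dhh (7.76 ± 0.584) and Sufu (5.72 ± 0.207), with Smo at 0.175 ± 0.0149 RPKM. Gli1 and Dhh overlapped there. In DMSO cells the order was Ptch1 (12.9 ± 1.18 RPKM, n = 3), Dhh (8.72 ± 0.535), Gli1 (7.38 ± 0.746), Sufu (5.60 ± 0.703) and, far below, Smo (0.173 ± 0.0391), with no overlap between neighbours. In 24-month cells Sufu (11.8 ± 2.44 RPKM, n = 2) and Smo (9.20 ± 1.19) met at 10.04 RPKM, followed by Ptch1 (3.95 ± 2.51), Dhh (1.01 ± 0.356) and Gli1 (0.548 ± 0.126). In 2-month cells Smo was the most abundant member (21.99 ± 0.734 RPKM, n = 2), followed by Sufu (9.71 ± 0.681), Ptch1 (8.02 ± 0.0219), Gli1 (1.10 ± 0.0710), Dhh (0.364 ± 0.198) and Gli3 (0.102 ± 0.00730). The longest Ptch1 transcript, 10.38 kb, is annotated as a target of nonsense-mediated decay. With its longest protein-coding transcript, 7.72 kb, Ptch1 stood at 13.9 RPKM with hymeglusin, 17.3 RPKM with DMSO, 5.31 RPKM at 24 months and 10.8 RPKM at 2 months, above Sufu in 2-month cells.

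The first comparison asked what hymeglusin did to the pathway in MLTC-1 cells. The ligand gene Dhh and the receptor gene Ptch1 were lower with hymeglusin, by less than 1.5-fold, while the tests of Gli1, Sufu and Smo missed the threshold. Hhip, Gli2 and Gli3 had too few counts to be tested. Of the 5 members tested, 2 were lower and 0 higher (edgeR quasi-likelihood test, adjusted p under 0.05), against 24.5% lower and 23.8% higher of 12873 genes, 48.3% in all. With total counts as the scale, 70.0% of the calls over all genes were higher, and 49.4% with TMM. The median log2 fold change was -0.05 over the 5 members and 0.01 over all genes. At an unadjusted p under 0.05, 0 members were higher, and 0 were higher with DESeq2 and limma-voom.

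Ptch1 averaged 107 ± 5.69 CPM with hymeglusin and 134 ± 12.2 CPM with DMSO (SD, n = 3 each). Its log2 fold change was -0.39 (SE 0.055, edgeR adjusted p = 2.85e-07), with no overlap between the groups. Dhh averaged 32.9 ± 2.48 CPM with hymeglusin and 37.0 ± 2.27 CPM with DMSO, a log2 fold change of -0.24 (SE 0.070, edgeR adjusted p = 0.00438). The highest hymeglusin value of Dhh and the lowest DMSO value were both 35.5 CPM when rounded. Without DMSO replicate 2, the log2 fold change of Dhh was -0.20 with an edgeR adjusted p of 0.0519, and it was -0.14 (0.102) with total counts, so this call rests on that library and on the scaling (1.2e-07 to 0.793 over the alternatives). In 1 fit of all 10 libraries neither was called (adjusted p = 0.579 for Ptch1 and 0.793 for Dhh), and Ptch1 was called under the other 15 alternatives (from 1.01e-26). Rhebl1, which overlaps Dhh, was higher with hymeglusin (log2 0.74, SE 0.138, edgeR adjusted p = 3.22e-05). Arhgap9, which overlaps Gli1, was higher too (log2 0.51, SE 0.182, edgeR adjusted p = 0.0184).

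Gli1 averaged 33.0 ± 3.07 CPM with hymeglusin and 29.9 ± 3.03 CPM with DMSO, a log2 fold change of 0.07 (95% interval -0.09 to 0.22, edgeR adjusted p = 0.494). Sufu stood at -0.05 (-0.21 to 0.12, edgeR adjusted p = 0.663) and was called lower with the offset for length and GC content (-0.18, adjusted p = 0.0326, 0.032 to 0.979 over the alternatives). Smo, at under 1 CPM, stood at -0.04 with a wide interval (-0.81 to 0.74). Within each library, the ratio of Gli1 to Ptch1 CPM was 0.315, 0.290 and 0.319 with hymeglusin and 0.217, 0.218 and 0.237 with DMSO. The ratios did not overlap and differed by a log2 of 0.46 (two-sided exact permutation test over samples, p = 0.1, the smallest that 3 against 3 can give).

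The second comparison asked how the pathway differed between Leydig cells of old and young mice. Smo was lower at 24 months, by 2.26-fold. The mean levels of Ptch1 and Gli1 were lower at 24 months and that of Dhh was higher, but these tests missed the threshold. Of the 6 members tested, 1 was lower and 0 higher, against 15.1% lower and 13.5% higher of 16381 genes, 28.6% in all (47.3% of the calls were higher, and 29.0% with total counts). Dhh alone among members with a positive change had an unadjusted edgeR p under 0.05 (0.0235); DESeq2 called it, and limma-voom called 0 members higher. Gli3 passed the count filter only through the 2-month libraries, where it was high. Over the 5 other members the median log2 fold change was -0.93, and over the 6 tested -0.94. Over all genes tested, with no such exclusion, it was -0.01. In bulk samples, fewer cells of a type and less RNA per cell cannot be told apart.

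In 24-month cells Smo averaged 34.8 ± 4.501 CPM and in 2-month cells 83.1 ± 2.77 CPM (SD, n = 2 per age). The log2 fold change was -1.18 (SE 0.321, edgeR adjusted p = 0.0264). It was -1.38 without 24-month replicate 1 and -1.09 without replicate 2. The call was lost without 2-month replicate 1 (-1.11) or 2 (-1.275). Each such fit keeps a single library in 1 age group, so its spread comes from the other pair alone. Only the size of the change is read there. Calls with age followed transcript length: in the decile of shortest transcripts 50.8% of genes were higher and 1.56% lower, and in the longest 1.06% were higher and 54.6% lower. In the decile that holds Smo and Gli1, 13.9% were lower. With a smooth trend on length removed, Smo stood at -0.80 (adjusted p = 0.0878), and with length and GC content removed at -0.94 (0.00928).

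Dhh averaged 4.30 ± 1.51 CPM at 24 months and 1.55 ± 0.839 CPM at 2 months, a log2 fold change of 1.56 (95% interval 0.26 to 2.86, edgeR adjusted p = 0.0683). It stood at 1.07 without 24-month replicate 1 and 1.82 without replicate 2. It was called higher with DESeq2 (adjusted p = 0.044), without the count filter (0.0235), in 1 fit of all 10 libraries (0.00462), after the length offset (2.12, 0.0126) and after the joint offset for length and GC (2.01, 0.0052), and its adjusted p ran from 0.00462 to 0.511 over the alternatives. Rhebl1, which overlaps Dhh, stood at a log2 of 1.17 with age (SE 0.600, edgeR adjusted p = 0.162) and was not called. The part of shared reads in the age values of Dhh was not tested. Dhh is a Sertoli cell gene. The summed CPM of Sox9, Amh and Wt1, defining genes of Sertoli cells, was 3.58 and 3.31 in 24-month cells and 1.78 and 2.22 in 2-month cells. Of 12 Sertoli cell markers in all, 11 were tested and 1 was higher, Ptgds, and 1 lower, Aard. The sum over the 12 was 18770 and 7595 CPM in 24-month cells and 2579 and 2214 CPM in 2-month cells, and without Ptgds 1334 and 710 CPM in 24-month cells and 674 and 573 CPM in 2-month cells. Most of the sum without Ptgds was Defb19, with 1255 and 616 CPM in 24-month cells and 482 and 408 CPM in 2-month cells. Defb19 was not called (edgeR adjusted p = 0.06). Fshr, the receptor of follicle-stimulating hormone, was at 0 in both 24-month libraries and in 2-month replicate 2. Summed markers of Schwann cells, another source of Dhh, were 19.3 and 18.7 CPM in 24-month cells and 14.3 and 10.6 CPM in 2-month cells, with Foxd3 at 0 in both 2-month libraries, and 0 of 3 tested were called. The part of these cells in the Dhh values was not tested.

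Ptch1 averaged 41.0 ± 26.1 CPM at 24 months and 83.3 ± 0.227 CPM at 2 months, a log2 fold change of -0.95 (95% interval -1.93 to 0.04, edgeR adjusted p = 0.129). It turned to 0.42 with the length offset (adjusted p = 0.412). It was called lower with no count filter (0.0423). Ptch1 has a transcript in the longest decile. It stood at -1.84 without 24-month replicate 2 and at -0.47 without replicate 1. Gli1 averaged 2.22 ± 0.509 CPM at 24 months and 4.47 ± 0.288 CPM at 2 months, a log2 fold change of -0.93 (-2.01 to 0.15, edgeR adjusted p = 0.166). It was called lower in 1 fit of all 10 libraries (-0.90, adjusted p = 0.00673), and stood at -0.46 with the length offset (0.59, the highest over the alternatives). Without 24-month replicate 1 it was -1.25, and without replicate 2 it was -0.75. Sufu stood at 0.36 (-0.37 to 1.09, edgeR adjusted p = 0.414). It was called higher with the length offset (1.01, adjusted p = 0.0345) and with the offset for length and GC (0.87, 0.0173). Without 24-month replicate 2 it stood at 0.51, and without replicate 1 at 0.065. Gli3 had 4 counts at 24 months, all in replicate 1, and 41 at 2 months. The ratio of Gli1 to Ptch1 was 0.114 and 0.0313 in 24-month cells and 0.0514 and 0.0560 in 2-month cells, so the groups overlapped.

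Markers of stromal and Leydig progenitor cells, which respond to Hedgehog ligands, had a summed level of 225 and 335 CPM in 24-month cells and 598 and 626 CPM in 2-month cells. Of the 9, 2 were lower, Pdgfra and Dcn, and 2 higher, Ly6a and Lum, and 0 were at 0. Peritubular myoid cell markers summed to 202 and 95.4 CPM in 24-month cells and 32.4 and 51.7 CPM in 2-month cells, with 3 of 6 tested higher, and Cnn1 and Des at 0 in 2-month replicate 1. Germ cell markers summed to 4463 to 8671 CPM at 24 months and 1441 to 1924 CPM at 2 months, with 6 of 9 higher and 0 at 0. The 6 were Acrv1, Prm1, Prm2, Tnp1, Tnp2 and Spem1. Ddx4 (log2 -0.51), Dazl (0.14) and Sycp3 (0.37) were not called, so the sum does not stand for all 9. Over all genes tested with age, 13.5% were higher and 15.1% lower. Macrophage markers summed to 19.2 to 33.7 CPM at 24 months and 9.12 to 11.8 CPM at 2 months (2 of 7 higher), and endothelial markers to 11.5 to 25.5 CPM at 24 months and 16.9 to 17.6 CPM at 2 months (1 of 4 tested higher, Tek at 0 in 2-month replicate 1). Most of the endothelial sum at 2 months was Cdh5, with 16.04 and 15.3 CPM, against 11.2 and 7.99 CPM at 24 months. Each other endothelial marker had a higher mean at 24 months, at most 2.95 CPM. The part of these cells in the age values of Smo, Ptch1 and Gli1 was not tested.

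**Figure D2:**
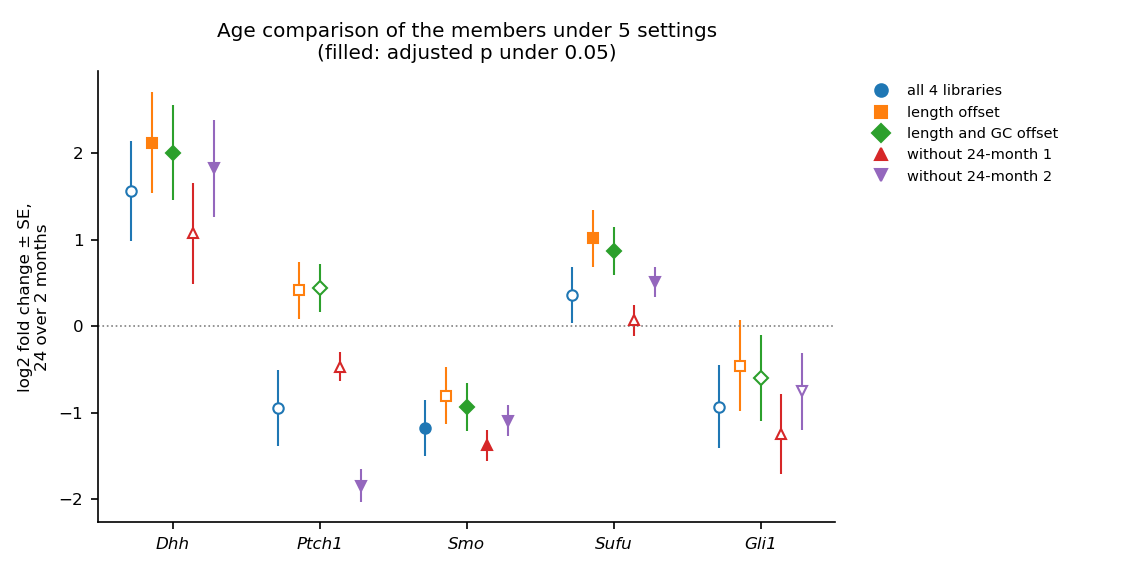
Log2 fold change of 24 over 2 months, ± SE (vertical axis), for 5 members with all 4 libraries, with offsets for transcript length or length and GC content, and without either 24-month library. Filled symbols had an adjusted p under 0.05. Fits without a 24-month library keep a single library at that age, so their fill is not read. Smo stayed below 0 in the 5 settings drawn (-1.38 to -0.80) and Dhh above 0 (1.07 to 2.12), while Ptch1 ran from -1.84 to 0.44.

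The third comparison set the tumour line, as DMSO-treated MLTC-1 cells, against the young primary cells. Cell source, culture and preparation cannot be told apart in it, and it shares its DMSO libraries with the first comparison and its 2-month libraries with the second. MLTC-1 cells had 23.0-fold more Dhh, 6.49-fold more Gli1 and 1.56-fold more Ptch1 RNA than 2-month cells, with 133-fold less Smo. Of the 5 members that passed the count filter in both groups, 3 were higher and 2 lower, against 34.4% higher and 48.5% lower of 16092 genes, 82.8% in all. Their median log2 fold change was 0.64, and it was -0.097 over the 6 members tested, Gli3 included. Over all genes tested it was -0.27. The shares and median over all genes include genes that passed the filter through 1 group only, so the 5 members are not a like set. Gli3 passed the filter only through the 2-month libraries, so its test is not read.

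Smo averaged 0.654 ± 0.148 CPM in DMSO cells (n = 3) and 83.1 ± 2.77 CPM in 2-month cells (n = 2), with a log2 fold change of -7.05 (SE 0.137, edgeR adjusted p = 8.03e-10). Dhh averaged 37.0 ± 2.27 CPM in DMSO cells and 1.55 ± 0.839 CPM in 2-month cells (log2 4.52, SE 0.251, edgeR adjusted p = 4.67e-07). Gli1 averaged 29.9 ± 3.03 CPM in DMSO cells and 4.47 ± 0.288 CPM in 2-month cells (log2 2.70, SE 0.145, edgeR adjusted p = 2.34e-07). These 3 calls stood under each of the 15 alternatives run. Rhebl1, which overlaps Dhh, was also higher in the line (log2 1.89, edgeR adjusted p = 0.000777), at a mean of 4.48 CPM in DMSO cells. So was Arhgap9, which overlaps Gli1 (2.21, edgeR adjusted p = 0.000451), at 2.91 CPM. The part of shared reads in the Dhh and Gli1 values was not tested. Ptch1 was higher (log2 0.64, SE 0.079, edgeR adjusted p = 5.57e-05), but missed the threshold in 1 fit of all 10 libraries (0.0758). Sufu was lower (-0.83, SE 0.114, edgeR adjusted p = 0.000111) and stood at -0.08 with the length offset (adjusted p = 0.505). That offset moved the median of all genes to 0.84, and relative to it Sufu stood at -0.92, Ptch1 at 0.63, Dhh at 4.44, Gli1 at 2.63 and Smo at -7.07.

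Gli3 had 9 counts in the 3 DMSO libraries, 8 of them in replicate 1, and 41 in the 2-month libraries. Hhip had 0 counts in DMSO cells and 9 in 2-month cells, at least 5.14-fold lower in DMSO cells when 3 counts over the group are allowed. Gli2 had 2 counts in DMSO cells and 10 in 2-month cells, 8.56-fold lower in DMSO cells (95% exact Poisson interval 1.82 to 80.3, counting error only). Its counts were even in every library, so single counts may not be independent. The interval would then be too narrow. The ratio of Gli1 to Ptch1 CPM was 0.217 to 0.237 in DMSO cells and 0.0514 and 0.0560 in 2-month cells (log2 difference 2.06, two-sided exact permutation test, p = 0.1, the smallest that 3 against 2 can give).

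**Figure D3:**
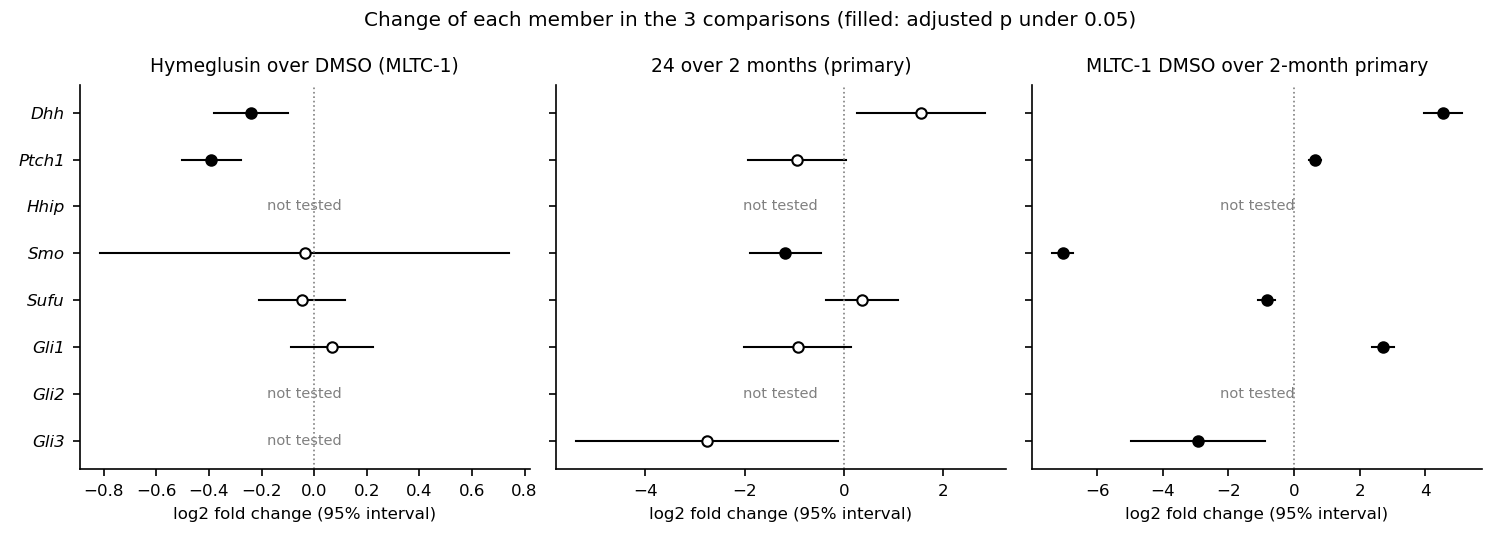
Log2 fold change of each member with its 95% interval (horizontal axes, a scale of their own per panel) for hymeglusin over DMSO, 24 over 2 months and MLTC-1 DMSO over 2-month primary cells. Filled points had an adjusted p under 0.05. With hymeglusin, Ptch1 (-0.39) and Dhh (-0.24) were called; with age Smo (-1.18); and between the line and primary cells the 6 members drawn, from -7.05 for Smo to 4.52 for Dhh. Gli3 passed the count filter only through the 2-month libraries, so its points are not read as calls.

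The rest of the pathway was taken from 3 lists with 56 genes in all: ligand release and co-receptors (13), cilium and Gli processing (26), and Gli target genes described in other tissues (19). Some genes, such as Gas1, stand in both the first and the last list. With hymeglusin, 9 of the 42 tested genes (21.4%) were higher and 8 (19.0%) lower, against 23.8% higher and 24.5% lower of all genes tested, and the median log2 fold change was 0.02. Of the 42, 35 passed the count filter in both groups, 7 of them higher and 8 lower. Among co-receptors, which hold ligand at the cell surface, Cdon averaged 23.3 ± 1.95 CPM with hymeglusin and 32.3 ± 3.63 CPM with DMSO (log2 -0.55, SE 0.081, edgeR adjusted p = 7.51e-07). Gas1 had 26 to 36 counts per library with hymeglusin and 2 to 12 with DMSO. It passed the filter only through the hymeglusin libraries, so its test is not read. Hhat, which attaches palmitate to the ligand, was lower (-0.45, edgeR adjusted p = 0.0132) and lost its call without hymeglusin replicate 1 (0.0665, 0.00502 to 0.448 over the alternatives). Of the 6 genes of this list that passed the filter in both groups, 0 were higher and 2 lower.

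Of the genes of the cilium and Gli processing, 5 of 24 (20.8%) were higher and 5 (20.8%) lower with hymeglusin. These shares were near the 23.8% higher and 24.5% lower of all genes. Kif7, a ciliary kinesin that regulates Gli proteins, averaged 23.8 ± 2.199 CPM with hymeglusin and 12.5 ± 0.726 CPM with DMSO (log2 0.86, SE 0.089, edgeR adjusted p = 5.49e-10), and was called under each of 16 alternatives. Ift80, a subunit of the transport complex of cilia, rose by a log2 of 0.25. Prkaca, the catalytic subunit of protein kinase A, which promotes processing of Gli proteins to repressors, fell by 0.32, and the casein kinase Csnk1a1 fell by 0.33 on the log2 scale. In 1 fit of all 10 libraries Kif7 kept its call (0.0234), and Cdon (0.31), Hhat (0.448), Ift80 (0.396), Prkaca (0.349), Csnk1a1 (0.462), Nr2f2 (0.291) and Cyp26b1 (0.0962) did not. Of the 5 target genes that passed the filter in both groups, 2 were higher and 1 lower. The nuclear receptor Nr2f2 rose by a log2 of 0.31 (edgeR adjusted p = 4.95e-05), and Cyp26b1, which breaks down retinoic acid, fell by 0.50 (edgeR adjusted p = 3.58e-10).

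At 24 months, 3 of 47 tested genes of the lists (6.38%) were higher and 11 (23.4%) lower, against 13.5% higher and 15.1% lower of all genes tested, with a median log2 fold change of -0.39. Of the 42 that passed the count filter in both groups, 2 were higher and 9 lower. With the length offset 5 of the 47 were higher and 4 lower, and over all genes 1618 were higher and 1144 lower, against 2214 and 2471. Fits that leave out a library keep a single library in an age group. Calls over all genes moved widely in those fits, so counts of the lists are not read there. Cdon had 9.73 and 22.2 CPM in 24-month cells and 163 and 139 CPM in 2-month cells (log2 -3.17, SE 0.446, edgeR adjusted p = 0.00464). Ccnd2, a D-type cyclin, had 6.69 and 9.23 CPM in 24-month cells and 91.8 and 75.8 CPM in 2-month cells (-3.32, SE 0.365, edgeR adjusted p = 0.00175). Pdgfra, the PDGF receptor of stromal and progenitor cells, had 29.0 and 61.5 CPM in 24-month cells and 211 and 222 CPM in 2-month cells (-2.18, SE 0.407, edgeR adjusted p = 0.01). These 3 genes were called lower under each of 14 alternatives, the length offsets included, with log2 fold changes of -3.92 to -1.995 for Cdon, -3.61 to -2.21 for Ccnd2 and -2.86 to -1.06 for Pdgfra.

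Among the other list genes at 24 months, Scube1, a ligand release factor family member, had 8 counts in 24-month cells and 90 in 2-month cells. It passed the filter only through the 2-month libraries, so its test is not read. The arrestin gene Arrb1 was lower (log2 -1.46). With the length offset it stood at -0.29 (adjusted p = 0.575), so this call was lost. The call was also lost without 2-month replicate 1 (-1.33) or 2 (-1.60), fits that keep a single 2-month library. Bmp4, a growth factor, had a mean of 26.7 ± 2.52 CPM at 24 months and 7.57 ± 0.448 CPM at 2 months (log2 1.90, edgeR adjusted p = 0.00938), and the Wnt inhibitor Sfrp1 8.20 ± 2.22 CPM at 24 months and 2.30 ± 0.729 CPM at 2 months (1.92, adjusted p = 0.0189). Both lost the call without 2-month replicate 1 (log2 1.87 and 1.65) or 2 (1.895 and 2.21), fits that keep a single 2-month library. By list, among genes that passed the filter in both groups, 0 were higher and 2 lower of 9 for release and co-receptors, 0 and 5 of 24 for cilium and Gli processing, and 2 and 2 of 11 for target genes.

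Between MLTC-1 DMSO cells and 2-month cells, 11 of 45 tested list genes (24.4%) were higher and 23 (51.1%) lower (median log2 -0.40), against 34.4% higher and 48.5% lower of all genes. Of the 37 that passed the count filter in both groups, 11 were higher and 16 lower (median -0.09). With the length offset 23 of the 45 were higher and 19 lower, but that offset moved the median of all genes to 0.84, against -0.27, and calls over all genes were then 9608 higher and 4834 lower. The co-receptor Boc had 0 counts in the 3 DMSO libraries and 70.8 and 72.6 CPM at 2 months, at least 2020-fold lower in the line, and passed the filter only through the 2-month libraries. Cdon averaged 32.3 ± 3.63 CPM in DMSO cells and 151 ± 16.97 CPM in 2-month cells (-2.27, SE 0.097, edgeR adjusted p = 6.34e-08). The glypican Gpc3 (3.45) and Disp1, which exports ligand (0.90), were higher. In this list 7 of 10 genes passed the filter in both groups, of which 3 were higher and 2 lower (median log2 0.57, against -1.36 over the 10).

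Cilium and Gli processing genes went both ways in the line, 7 of 24 higher (29.2%) and 9 lower (37.5%), beside 34.4% and 48.5% of all genes. Tulp3, which carries receptors into cilia, was higher (log2 2.12, SE 0.085, edgeR adjusted p = 4.08e-08), as was the kinase gene Gsk3b (1.26). Kif3a, a motor of ciliary transport, was lower (-2.05, SE 0.102, edgeR adjusted p = 1.44e-07), and so was Spop, an adaptor for breakdown of Gli proteins (-1.35). With the length and GC offset Spop stood at -0.13 (adjusted p = 0.174, up to 0.333 over the alternatives), where the median of all genes was 0.85, and relative to that median at -0.99. Of 13 tested target genes of other tissues 7 passed the filter in both groups, of which 1 was higher and 6 lower. The 34.4% higher and 48.5% lower of all genes were not restricted in this way. Pdgfra was lower (-7.00). Ccnd2, which passed only through the 2-month libraries, had 23 counts in the 3 DMSO libraries and a mean of 83.8 CPM in 2-month cells. Cyp26b1 averaged 224 ± 16.9 CPM in DMSO cells and 1.85 ± 0.571 CPM in 2-month cells (6.87, SE 0.154, edgeR adjusted p = 1.92e-09). Pdgfra and Nr2f2 stand both in this list and among the stromal and progenitor markers, so the marker sum is not independent of the targets. That sum was 71.6 to 72.5 CPM in DMSO cells, of which Nr2f2 had 69.6 to 70.4 CPM, with Tcf21 at 0 in each library. In 2-month cells it was 598 and 626 CPM, of which Pdgfra had 211 and 222 CPM and Nr2f2 134 and 134 CPM. The part of stromal cells in the values of 2-month preparations was not tested.

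**Figure D4:**
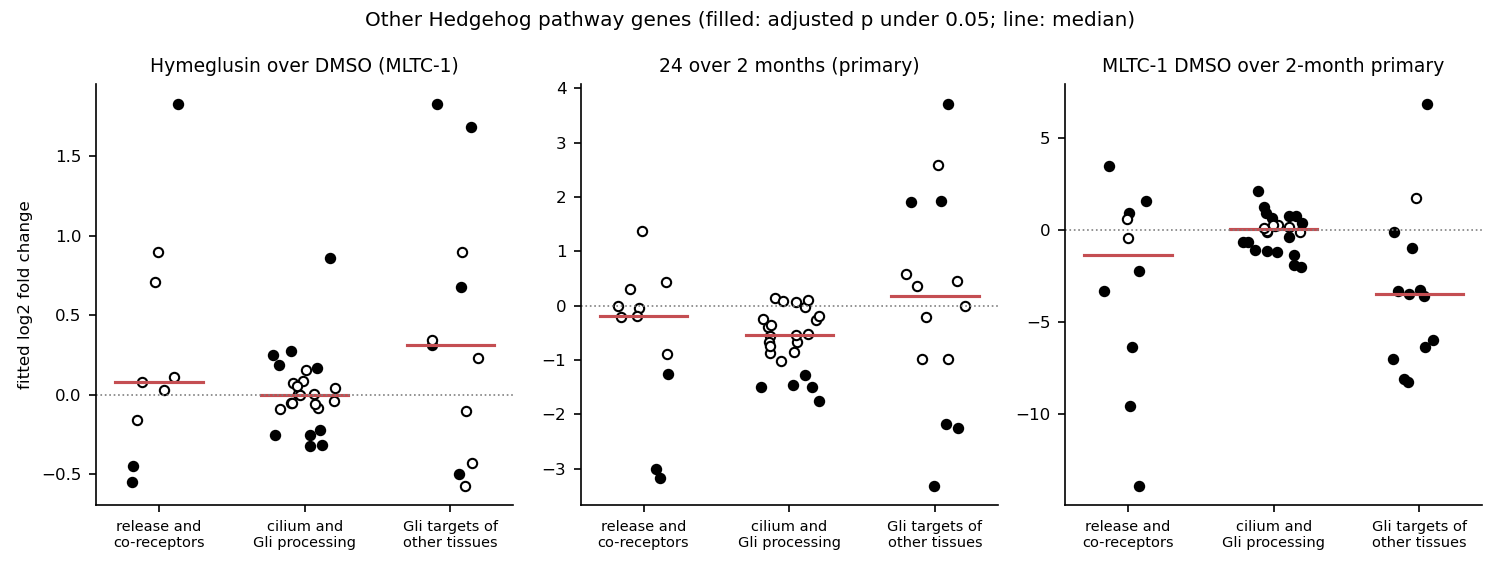
Fitted log2 fold change (vertical axes, a scale of their own per panel) of the tested genes of the 3 lists in the 3 comparisons. Each point is a gene, filled points had an adjusted p under 0.05, and red lines are list medians. In the line against 2-month cells, the line of target genes of other tissues lies at -3.48 and that of release and co-receptors at -1.36. There 6 of the 13 target genes and 3 of the 10 release and co-receptor genes did not pass the count filter in both groups. Over the genes that did, the medians were -3.335 for target genes and 0.57, of opposite sign, for release and co-receptors. The lowest fitted point, Boc, is a gene at 0 counts in the line, for which the fitted value is no bound.

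Over the 10 libraries, the genes whose pattern was nearest to that of Ptch1 were Acly, Iars2, Plcxd2, Htatsf1 and Gabpa, and those nearest to Gli1 were Ints7, Bok, Dip2b, E2f1 and Abca7. Likeness was the root mean square difference of log2 CPM after each gene was centred on its mean, among 10201 genes, with 0.0861 to 0.132 for Ptch1 and 0.114 to 0.195 for Gli1. Acly, for example, averaged 888 CPM with hymeglusin, 1157 CPM with DMSO, 340 CPM at 24 months and 719 CPM at 2 months. Ints7 averaged 151 CPM with hymeglusin, 140 CPM with DMSO, 11.8 CPM at 24 months and 23.5 CPM at 2 months.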

How the data were processed

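The authors deposited a table of raw whole-number counts by gene symbol, without normalization. Per the submitters' processing notes, the build was mm10 and the tools included featureCounts 2.0.6, HISAT2 2.2.1, FastQC 0.12.1 and fastp 0.23.4. Options, strand setting and annotation of the counting were not given in these sources. Without a known strand setting, reads of overlapping genes cannot be told apart. Libraries were made from total RNA with a NEBNext Ultra kit, per the labels' protocols.

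Counts were analysed with edgeR 4.0.16 (limma 3.58.1, DESeq2 1.42.0, R 4.3.3). Each comparison was fitted on its own libraries with filterByExpr (minimum count 10, minimum total 15), TMM scaling and robust, two-sided quasi-likelihood F-tests, and p was adjusted over all tested genes by Benjamini-Hochberg, with 0.05 as threshold. A gene passed the filter in both groups where each group alone met its level of counts. The SE is the size of the log2 fold change divided by the square root of F. Intervals use the t distribution of the fit. Levels were scaled by TMM over all 10 libraries without a filter, so their ratios can differ slightly from fitted folds. A count of 0 allows up to 3 counts, or 0.0873 to 0.199 CPM. Floors, fold bounds and intervals cover counting error only and take each count as independent, which was not tested. Were counts to come in pairs, the floors would be too low and the fold bounds too high.

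Positions are RefSeq bounds on GRCm38.p6, the assembly of mm10. Transcript lengths are the longest GENCODE M21 transcript, known for 97.8% to 98.1% of tested genes. Trends on length and GC content were fitted by loess in each library (span 0.3, 2 passes). Members, lists and rules were chosen with earlier results of these data known. Named genes are the members, up to 2 called genes per direction of each list and comparison by adjusted p, and the 5 nearest patterns of Ptch1 and Gli1 among genes whose mean log2 CPM was 2 or more (prior count 2). Rhebl1, Arhgap9, Shh, Ihh and marker genes were named for overlap, ligand role or cell type. Some genes that the rule takes are not reported here. Fits were tested on simulated data.

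The alternatives were RLE and total-count scaling, DESeq2, limma-voom, no count filter, both offsets, the replicate number as a block, a joint fit of the 10 libraries, and fits that each omit a library. The protein-coding length of Ptch1 was an alternative added after seeing the annotation.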

Additional observations from a re-analysis of the deposited data

How the results depend on the processing

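With hymeglusin, members called lower numbered 2, and 1 with total counts, 0 in 1 fit of all 10 libraries, and 1 to 2 without each library. Sufu was called lower besides these 2 with the length and GC offset (edgeR adjusted p = 0.0326) and with the replicate block as well (0.032). Over all genes, 3069 were higher and 3149 lower, and 4659 and 1996 with total counts (median log2 of all genes 0.11). In 1 fit, where the line and the primary cells share a spread per gene, they were 645 and 289. Members whose tests missed the threshold changed sign: Smo to 0.068 with total counts, 0.047 in 1 fit and -0.20 to 0.15 without each library; Sufu to 0.058 with total counts, 0.040 in 1 fit and -0.13 to 0.037 without each library. Gli1 turned to -0.077 with the length and GC offset, -0.076 with the replicate block as well, and ran from -0.0079 to 0.12 without each library.

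With age, members called higher numbered 0, and 1 with DESeq2, 1 with no count filter, 2 after each of the length offset, the length and GC offset and that offset with the replicate block, 1 in 1 fit and 0 to 2 without each library. Members called lower numbered 1, and 2 with no count filter, 0 with the length offset, 3 in 1 fit and 0 to 2 without each library. Over all genes 2214 were higher and 2471 lower, 531 and 1301 with total counts, 4309 and 4559 in 1 fit, 1144 lower with the length offset, and 239 to 4259 higher and 602 to 5628 lower without each library. Ptch1 turned to 0.42 after the length offset, 0.44 after that for length and GC and 0.40 with the replicate block on top.

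For the line against 2-month cells, member counts, Gli3 included, stayed within 1.5 times of 3 and 3. Over all genes 5534 were higher and 7797 lower, 9608 and 4834 after the length offset, 9648 and 4876 after that for length and GC, and 9393 and 4568 with the replicate block as well. Same-numbered samples did not deviate together (correlation 0.0023, -0.025 and 0.032 in MLTC-1 cells, -0.089 with age). With the replicate block, calls were 3127 and 3233 with hymeglusin, 2088 and 2686 with age and 5305 and 7501 for the line, and no member's call changed. The cause of these moves was not tested. Depth limits Hhip, Gli2 and Gli3, and Smo in MLTC-1 cells.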
